A study of Marchantia polymorpha with 18 samples.

Results

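Dirigent proteins are secreted plant proteins that guide how phenolic radicals join to each other. In flowering plants the radicals are made by oxidases such as laccases and peroxidases, and the dirigent protein fixes the stereochemistry of the product, as in the coupling of coniferyl alcohol to pinoresinol in Forsythia. Dirigent proteins of flowering plants also take part in lignin placement at the Casparian strip and in the response to pathogens. Their substrates are supplied by the phenylpropanoid pathway, which starts from phenylalanine. The liverwort Marchantia polymorpha carries a large dirigent family, much of it in runs of neighbouring genes, and no enzymatic role of a single member is assigned here.

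The 7 genes described were MpDIR36 (Mp5g16890), MpDIR35 (Mp5g16900), MpDIR34 (Mp5g16910), MpDIR33 (Mp5g16920) and MpDIR32 (Mp5g16930), which are adjacent rows on chromosome 5, and MpDIR48 (Mp3g24140) and MpDIR64 (Mp3g24210), which open and close a run on chromosome 3. They were listed one by one, out of 19355 genes in the table and 59 with a dirigent symbol, and were chosen by the change of their read counts after wounding, which was called moderate. No numeric threshold was set. The change from intact to damaged tissue, which chose them, is therefore described without a test, as is the change from systemic to damaged tissue, which uses the same damaged libraries. All 7 passed the filter on low counts, which left 13450 genes for testing.

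The libraries came from thallus, the flat body of the plant, grown on soil for 28 days. The wild type was set against Mpglr-9, a single deletion line of MpGLR, a glutamate receptor-like gene, made by CRISPR, and the study asked what MpGLR contributes to gene expression after wounding. Wounding meant crushing 2 lobes of a plant with serrated forceps, and after 4 h the crushed lobes (damaged) and the adjacent uncrushed lobes of the same plants (systemic) were collected beside thallus of unwounded plants (intact). Each genotype therefore had 3 conditions, intact, damaged and systemic, and each of the 6 groups had 3 biological replicates pooled from 9 plants each, 18 libraries in all.

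Library totals ran from 17312755 to 30690205 counts, and 3 counts, taken as the limit of detection, corresponded to 0.0974 to 0.178 CPM (read counts relative to TMM-scaled library size). The first principal component of the libraries held 68.7% of the variance and set the 6 damaged libraries apart from the other 12. The second held 9.73%, and on it the library numbered 3 was the highest of its group in all 6 groups. The gap was widest in intact plants, where the libraries numbered 3 stood at 36.9 (wild type) and 29.8 (Mpglr-9) and the other 4 between -30.9 and -17.7, while in the systemic and damaged groups the libraries numbered 3 stood between 10.3 and 22.2. The 2 intact ones touch several results, and the members most affected are given with and without them. Neighbour, family, gene list and likeness values are given with them only. Leaving them out was decided after the data were seen. MpGLR was not analysed here, so no transcript level checked the genotype labels. Neighbouring dirigent genes may share reads where their sequences are near-identical, the strand setting of the counting is not given in the sources used here, and p-values measure the spread between these replicates.

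MpDIR32, at the end of the chromosome 5 run, showed the widest range of the 7 genes. Its wild-type intact libraries held 1.79, 1.21 and 1.92 CPM, its systemic libraries 1.46, 0.962 and 1.25 CPM and its damaged libraries 56.6, 40.2 and 35.4 CPM. In Mpglr-9 the intact libraries held 1.42, 0.942 and 11.6 CPM, the systemic libraries 2.21, 1.04 and 1.01 CPM and the damaged libraries 46.1, 31.8 and 30.7 CPM. All 6 damaged libraries lay above all 12 others, and the 1 undamaged library that left the low range was Mpglr-9 intact library 3. The log2 fold change from intact to damaged was 4.72 (SE 0.72), or 26.4-fold, in the wild type and 2.95 (SE 0.64), or 7.75-fold, in Mpglr-9. Without the intact libraries numbered 3 these values were 4.85 (SE 0.34) and 4.93 (SE 0.35). In the wild type with all 18 libraries, the label "moderately" thus describes the other 6 genes better than MpDIR32. In Mpglr-9 MpDIR64 changed more than MpDIR32, by 10.7-fold. Without the intact libraries numbered 3 MpDIR64 changed 21.0-fold in the wild type, so the label suits it poorly too.

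MpDIR36 stands at the other end of the 5 members on chromosome 5 and had the smallest difference. Its wild-type libraries held 9.39, 9.87 and 8.05 CPM in intact, 8.67, 9.03 and 9.37 CPM in systemic and 26.0, 24.4 and 19.1 CPM in damaged tissue. Its Mpglr-9 libraries held 10.6, 7.88 and 13.5 CPM in intact, 10.2, 9.13 and 7.66 CPM in systemic and 19.8, 17.9 and 15.4 CPM in damaged tissue. The damaged libraries were the highest in both genotypes, but in Mpglr-9 the lowest of them exceeded intact library 3 by only 1.14 times. The log2 fold change was 1.35 (SE 0.17) in the wild type and 0.73 (SE 0.17) in Mpglr-9. Without the intact libraries numbered 3 these values were 1.27 (SE 0.16) and 0.94 (SE 0.16).

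MpDIR34 lies in the middle of the run. Its wild-type libraries held 4.52, 4.63 and 6.33 CPM in intact, 4.39, 4.17 and 4.91 CPM in systemic and 14.9, 16.9 and 19.9 CPM in damaged tissue. Its Mpglr-9 libraries held 3.95, 2.79 and 3.96 CPM in intact, 5.14, 4.09 and 3.85 CPM in systemic and 11.8, 13.2 and 13.0 CPM in damaged tissue. Damaged and undamaged libraries did not overlap, and each Mpglr-9 damaged library lay below each wild-type one. How many other genes showed such an order of the genotypes was not counted. The log2 fold changes from intact to damaged were 1.74 (SE 0.17) and 1.82 (SE 0.17).

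MpDIR35 and MpDIR33 were low in intact wild-type thallus and about equally higher in damaged lobes. MpDIR35 held 3.61, 2.21 and 3.25 CPM in wild-type intact, 3.41, 2.73 and 2.95 CPM in systemic and 13.6, 8.99 and 10.04 CPM in damaged libraries. In Mpglr-9 it held 3.17, 2.53 and 13.4 CPM in intact, 5.45, 3.20 and 2.32 CPM in systemic and 15.4, 9.82 and 10.4 CPM in damaged libraries. In the wild type the damaged libraries were apart from the rest, whereas in Mpglr-9 intact library 3 reached the range of the damaged ones.

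MpDIR33 held 4.24, 3.07 and 2.66 CPM in wild-type intact, 3.45, 2.83 and 2.50 CPM in systemic and 13.3, 10.9 and 11.2 CPM in damaged libraries. In Mpglr-9 it held 1.64, 2.71 and 8.61 CPM in intact, 3.83, 2.80 and 2.19 CPM in systemic and 13.4, 10.004 and 7.71 CPM in damaged libraries. Here too the groups were apart in the wild type and overlapped in Mpglr-9 through intact library 3. The wild-type log2 fold changes were 1.84 (SE 0.52) for MpDIR35 and 1.83 (SE 0.44) for MpDIR33. The Mpglr-9 values were 0.90 (SE 0.49) and 1.26 (SE 0.43), and they became 2.06 (SE 0.33) and 2.26 (SE 0.29) without the intact libraries numbered 3.

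MpDIR48, the first gene of the chromosome 3 run, was readily detected in intact thallus. Its wild-type libraries held 20.2, 25.9 and 30.4 CPM in intact, 27.9, 28.9 and 22.1 CPM in systemic and 98.5, 127.0 and 77.0 CPM in damaged tissue. Its Mpglr-9 libraries held 25.3, 19.4 and 14.2 CPM in intact, 26.9, 18.1 and 11.2 CPM in systemic and 85.2, 81.8 and 82.6 CPM in damaged tissue. The damaged libraries lay at least 2.53 times above every undamaged one. The log2 fold changes were 1.98 (SE 0.28), or 3.96-fold, and 2.08 (SE 0.28), or 4.24-fold.

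MpDIR64, the last gene of the same run, had lower counts and a wider difference. Its wild-type libraries held 1.68, 2.38 and 16.1 CPM in intact, 4.39, 7.91 and 5.62 CPM in systemic and 48.7, 48.4 and 29.3 CPM in damaged tissue. Its Mpglr-9 libraries held 2.24, 1.88 and 4.91 CPM in intact, 4.73, 1.68 and 3.15 CPM in systemic and 35.6, 33.4 and 28.4 CPM in damaged tissue. No undamaged library reached a damaged one, and the nearest was wild-type intact library 3. The log2 fold change was 2.61 (SE 0.65), or 6.12-fold, in the wild type and 3.43 (SE 0.71), or 10.7-fold, in Mpglr-9. Without the intact libraries numbered 3 it was 4.39 (SE 0.38), or 21.0-fold, and 3.97 (SE 0.38), or 15.7-fold.

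**Figure D1:**
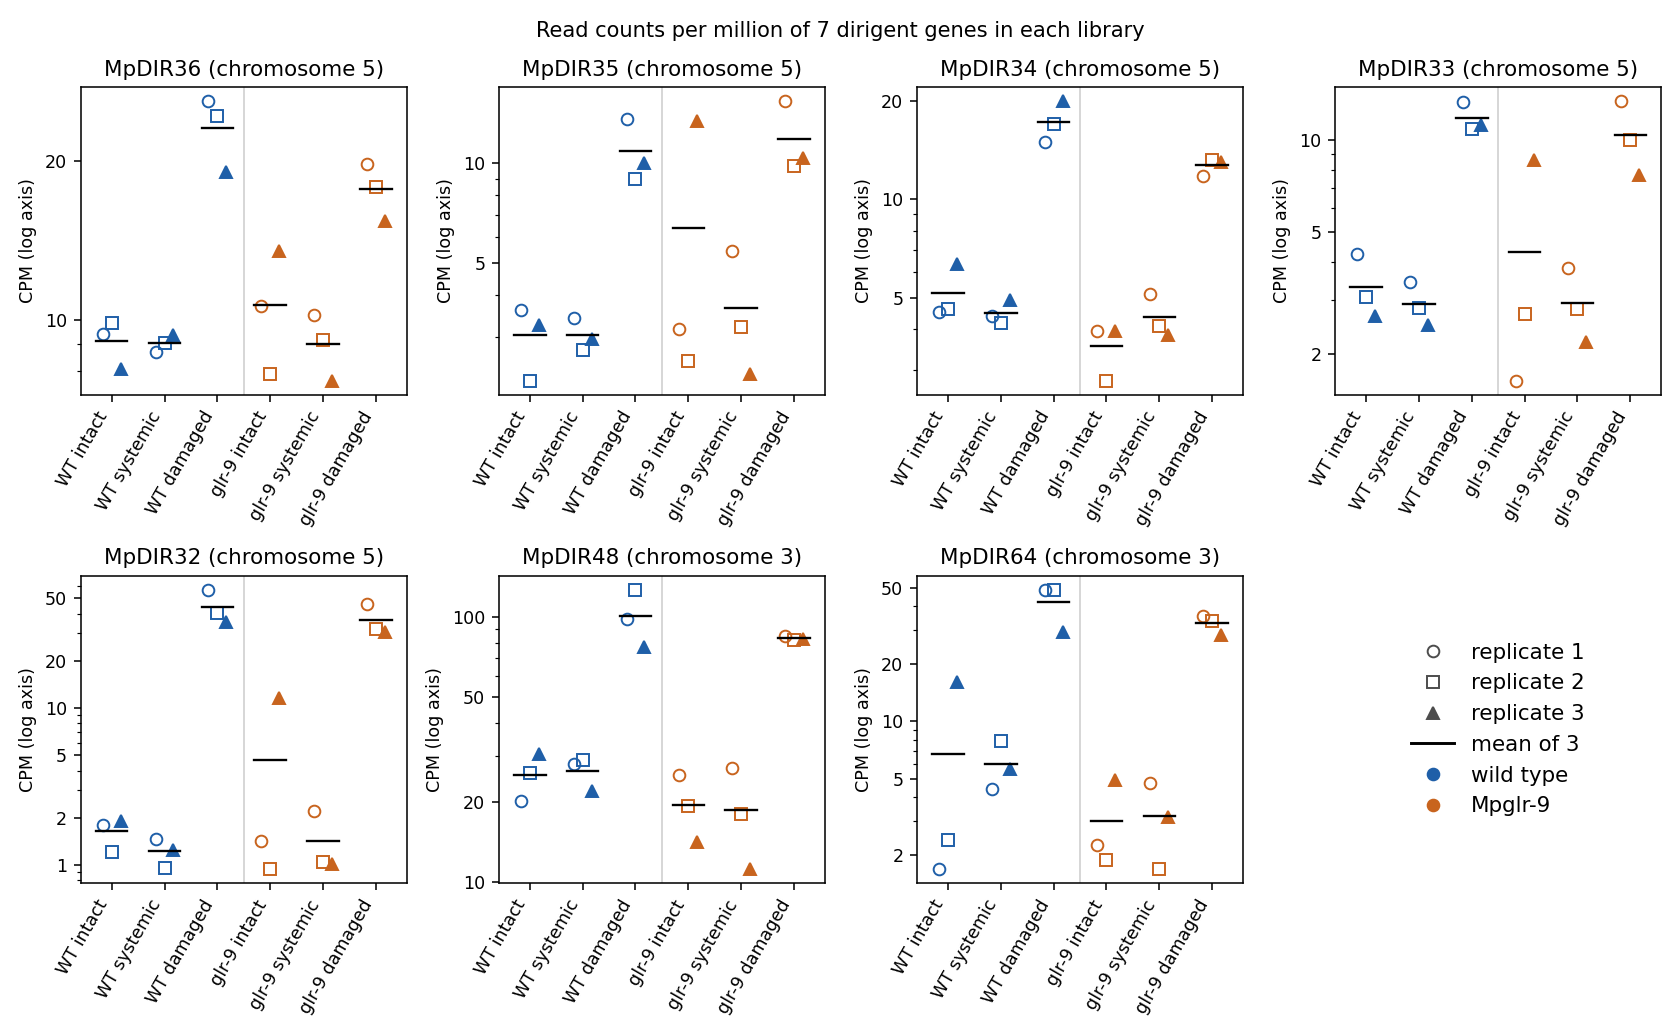
CPM of each of the 7 genes in every library on a log axis, by group, with wild type in blue, Mpglr-9 in orange, a separate symbol for each replicate and a bar at the mean of 3. The damaged groups are the highest in every panel, and the filled triangles show the intact libraries numbered 3 that rise above their group, Mpglr-9 for MpDIR35, MpDIR33 and MpDIR32 and the wild type for MpDIR64.

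Across the 7 genes the damaged and undamaged libraries were separate for all 7 in the wild type and for 5 of 7 in Mpglr-9. The 7 were chosen by this change, and the share of all tested genes that were separate in this way was not counted. The median log2 fold change from intact to damaged was 1.84 in the wild type and 1.82 in Mpglr-9, against -0.03 and -0.02 over all tested genes. Over all tested genes 27.7% were called higher and 27.8% lower in the wild type (edgeR's quasi-likelihood test, adjusted p under 0.05), and 27.6% and 27.2% in Mpglr-9, so a change after crushing was common in the table. The split depends on the scaling, since with upper-quartile scaling the median over all genes shifted to -0.12 in the wild type and the share of calls that were higher fell from 50.0% to 37.8%. By size of the wild-type log2 fold change the 7 genes ranked from 89 (MpDIR32) to 763 (MpDIR36) of 13450.

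Damaged lobes were also compared with systemic lobes of the same plants, in a fit that did not pair their libraries. The log2 differences in the wild type ran from 1.36 (SE 0.17) for MpDIR36 to 5.13 (SE 0.76) for MpDIR32, with a median of 1.94. In Mpglr-9 they ran from 0.98 (SE 0.17) for MpDIR36 to 4.68 (SE 0.74) for MpDIR32, with a median of 1.82. The medians were close to those against intact plants, but in Mpglr-9 MpDIR32 (4.68 against 2.95) and MpDIR35 (1.70 against 0.90) differed more from systemic than from intact tissue. Intact libraries do not enter here, and MpDIR32 was 35.0-fold higher in damaged than in systemic lobes of the wild type and 25.6-fold higher in Mpglr-9.

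Other transcripts moved with crushing in the same libraries. Summed were 3 genes linked to photosynthetic tissue, MpCHLI1/2-like and MpCHLD of chlorophyll synthesis and MpRBCS. Their level was 652 to 703 CPM in wild-type intact and 289 to 398 CPM in damaged libraries. That of 19 genes of dividing cells was 655 to 704 and 286 to 436 CPM. In Mpglr-9 the ranges were 629 to 720 and 278 to 422 CPM for the 3 genes of photosynthetic tissue and 651 to 698 and 322 to 428 CPM for dividing cells. The summed level of 4 genes linked to oil body cells, which store phenolic compounds and terpenoids, was 126 to 154 CPM in wild-type intact and 370 to 518 CPM in damaged libraries, and 124 to 143 and 373 to 486 CPM in Mpglr-9. Of these 4 genes 1 rose and 1 fell in the wild type, and 1 rose and 0 fell in Mpglr-9 (edgeR). MpC1HDZ, a homeodomain regulator of oil body cells, had a wild-type mean of 101 ± 14.0 CPM in intact libraries and rose to 408 ± 74.6 CPM in damaged ones (SD, n = 3). MpSYP12B, a syntaxin of the oil body membrane, fell by 0.46 (SE 0.17, edgeR adjusted p = 0.0301) in the wild type and was at 0.24 (SE 0.17, adjusted p = 0.256) in Mpglr-9. MpERF13, a regulator of oil body formation, was at -0.04 (SE 0.19) and 0.16 (SE 0.19), and the transporter gene MpABCG1 at -0.18 (SE 0.08) and -0.19 (SE 0.08), neither called. Of 3 reproductive markers, the sperm protamine MpPRM reached at most 0.0733 CPM and MpDUO1 2.25 CPM, while MpRKD, which is also expressed outside reproductive organs, held 213 to 248 CPM. In bulk tissue, fewer cells of a type and less RNA per cell cannot be told apart, and the part of cell composition in the dirigent values was not tested.

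The genes beside the 7 in table order were read next. Since the 7 were chosen by this change, their own values beside these neighbours are a description. On chromosome 5 the row before MpDIR36 is another dirigent gene, MpDIR37, which held 21.7 ± 2.94 CPM in intact and 21.6 ± 0.228 CPM in damaged wild-type libraries (SD, n = 3). Its log2 fold change was -0.01 (SE 0.12, edgeR adjusted p = 0.956) in the wild type and -0.11 (SE 0.12, adjusted p = 0.498) in Mpglr-9. From there the wild-type values of the 5 members in table order were 1.35, 1.84, 1.74, 1.83 and 4.72, and the next row, Mp5g16940, was at 0.09 (SE 0.07, adjusted p = 0.275). Among the 16 tested genes without a dirigent symbol within 10 rows on either side, 2 rose and 5 fell in the wild type (12.5% and 31.2%), with log2 fold changes from -1.37 to 0.56, and 3 rose and 7 fell in Mpglr-9 (18.8% and 43.8%). Over all tested genes the shares were 27.7% and 27.8% in the wild type and 27.6% and 27.2% in Mpglr-9.

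On chromosome 3 the 4 dirigent genes between MpDIR48 and MpDIR64 also rose. In table order after MpDIR48 (1.98) the wild-type log2 fold changes were 1.77 (SE 0.27) for MpDIR47, 1.96 (SE 0.25) for MpDIR46, 2.83 (SE 0.56) for MpDIR45 and 3.29 (SE 0.54) for MpDIR44, with edgeR adjusted p from 1.34e-05 to 0.000641. The Mpglr-9 values were 1.81 (SE 0.28), 1.77 (SE 0.25), 3.25 (SE 0.60) and 3.84 (SE 0.58). MpDIR44 and MpDIR64 are separated by Mp3g24190 and Mp3g24200, which had 0 counts in all 18 libraries.

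Genes around the chromosome 3 run were counted in the same way. Of 17 tested genes without a dirigent symbol within 10 rows, 9 rose and 0 fell in the wild type (52.9% rose, against 27.7% of all tested genes), and 7 rose and 0 fell in Mpglr-9 (41.2%, against 27.6%). They include 3 polyphenol oxidase genes, MpPPO31, MpPPO70 and MpPPO30, with wild-type log2 fold changes of 7.05 (SE 0.46), 2.86 (SE 0.51) and 2.89 (SE 0.50), chosen for naming after their values were seen. MpPPO31 held only 0.609 ± 0.554 CPM in wild-type intact libraries (SD, n = 3), so its fold is poorly fixed, and MpPPO30 had 313 counts over all 18 libraries. MpPPO32, in the row before MpPPO31, was not called, at -0.38 (SE 0.40, edgeR adjusted p = 0.435) in the wild type and -0.47 (SE 0.40, adjusted p = 0.34) in Mpglr-9. Polyphenol oxidases oxidise phenols to quinones.

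**Figure D2:**
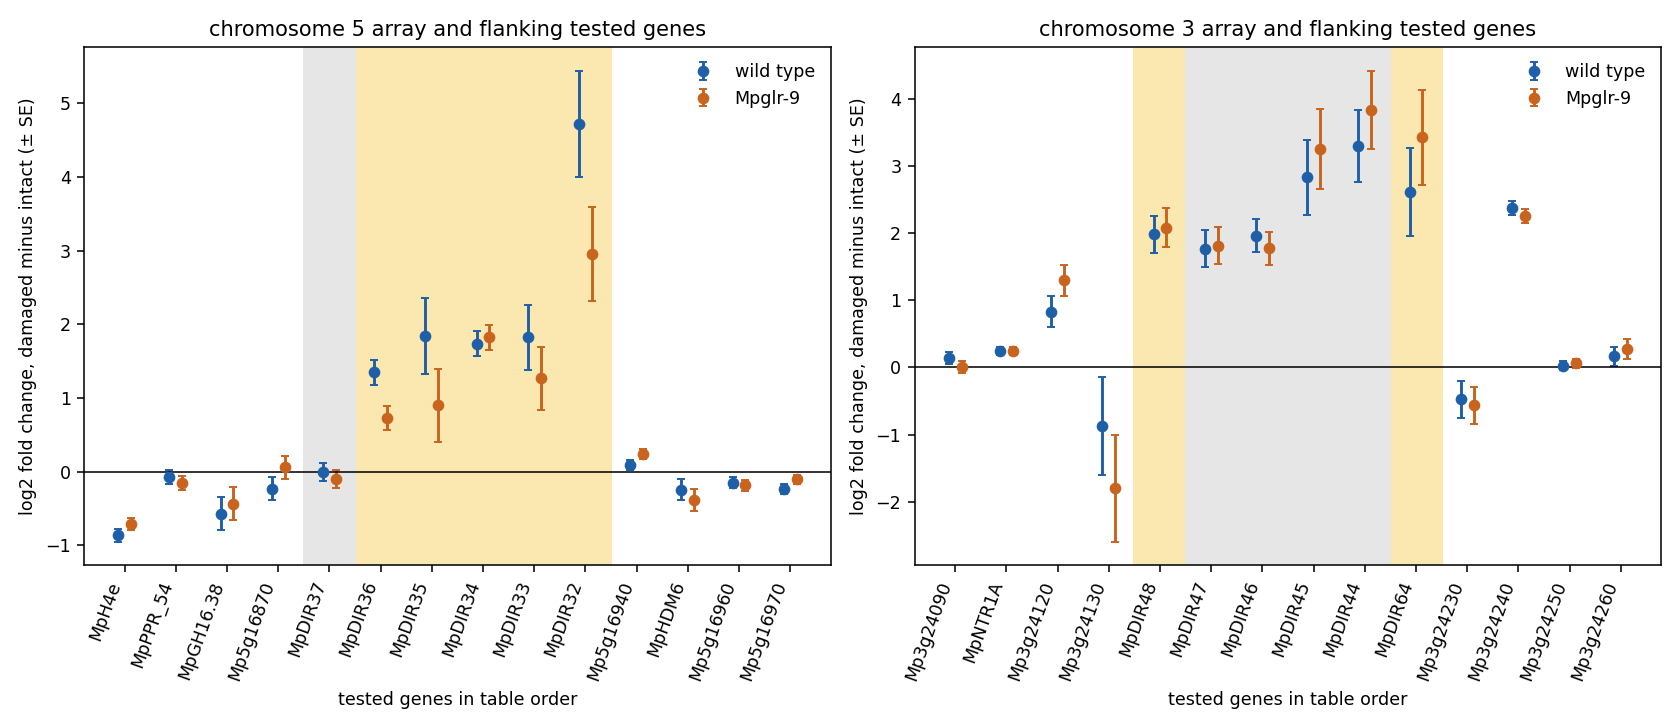
Log2 fold change from intact to damaged tissue (± SE) for tested genes in table order along the chromosome 5 and chromosome 3 runs, with wild type in blue and Mpglr-9 in orange, the 7 described genes on yellow and other dirigent genes on grey. On chromosome 5 the values step from MpDIR37 near 0 to the 5 members and back to Mp5g16940 near 0, while on chromosome 3 all 6 dirigent genes of the run lie above 1.

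Since the 7 genes were chosen by their change after wounding, their places within the dirigent family are a description. Of 59 genes with a dirigent symbol 47 were tested, and by wild-type log2 fold change MpDIR32 ranked 10, MpDIR64 18, MpDIR48 19, MpDIR35 21, MpDIR33 22, MpDIR34 24 and MpDIR36 25 of 47. Of the other 40 tested dirigent genes 25 rose and 3 fell in the wild type (62.5% rose), with a median of 0.83, and 25 rose and 2 fell in Mpglr-9, with a median of 0.77. Over all tested genes 27.7% rose and 27.8% fell in the wild type, and 27.6% and 27.2% in Mpglr-9. MpDIR61 and MpDIR41 had the largest changes. MpDIR61 was at 0.555 ± 0.41 CPM in intact and 60.6 ± 22.2 CPM in damaged wild-type libraries (SD, n = 3), with a log2 difference of 6.75 (SE 0.51, edgeR adjusted p = 1.19e-07). MpDIR41 was at 0.184 ± 0.291 CPM, near the limit of detection, and 19.5 ± 8.16 CPM (adjusted p = 0.000552), so its fold is poorly fixed. MpDIR24 fell by 1.37 (SE 0.24, adjusted p = 9.9e-05), from 10.4 ± 1.47 to 3.99 ± 1.71 CPM. MpDIR23 fell by 0.97 (SE 0.35, adjusted p = 0.0245), a call lost when the 2 groups were fitted alone (adjusted p = 0.0611) and when wild-type intact library 1 or 2 or damaged library 3 was left out (0.0522, 0.0959 and 0.122).

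**Figure D3:**
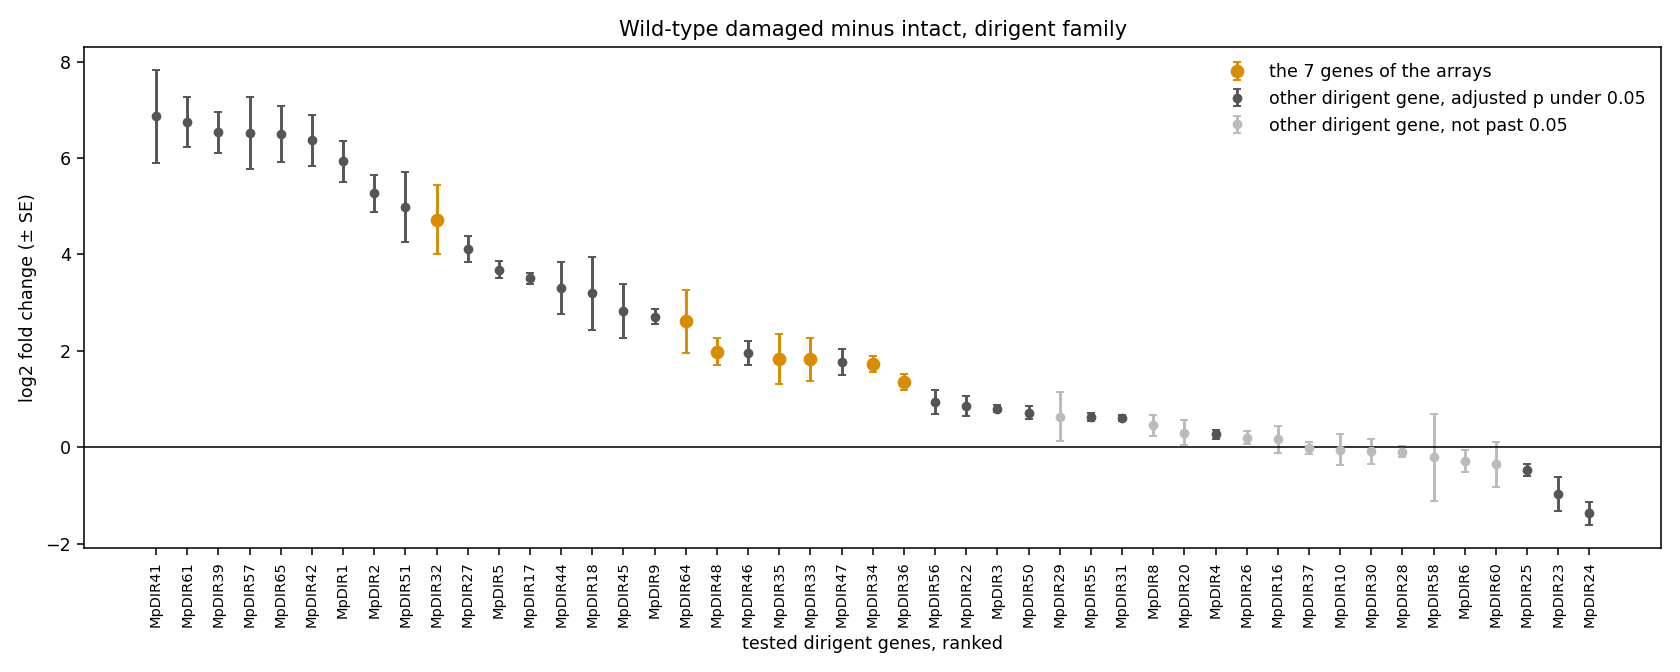
Log2 fold change from intact to damaged wild-type tissue (± SE) for the 47 tested dirigent genes in rank order, with the 7 described genes in orange and the other 40 in dark or light grey by whether their adjusted p was under 0.05. The 7 genes, which were chosen by their change after wounding, occupy ranks 10 to 25, MpDIR32 above the other 6. At the right end 3 genes are called lower.

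The pathways that supply and oxidise phenolics were read from lists of gene symbols. Of 15 tested genes for the entry into the phenylpropanoid pathway, 12 rose and 1 fell in the wild type (median log2 fold change 1.10) and 11 rose and 1 fell in Mpglr-9. The latter is 73.3% of the list, against 27.6% called higher over all tested genes. Mp4CL2, a 4-coumarate CoA ligase, rose from 146 ± 10.9 to 1360 ± 210 CPM in the wild type, and MpPAL4, a phenylalanine ammonia lyase, from 6.73 ± 0.954 to 41.6 ± 14.0 CPM (SD, n = 3). Of 3 later phenolic steps 0 rose and 1 fell in the wild type, and 0 rose and 2 fell in Mpglr-9, where 27.8% and 27.2% of all tested genes fell. MpC3H, a coumarate hydroxylase, fell by 0.26 (SE 0.07) on the log2 scale in the wild type. Of 28 genes of flavonoid and auronidin synthesis 15 rose and 6 fell in the wild type, and 15 rose and 5 fell in Mpglr-9. In each 53.6% rose, against 27.7% and 27.6% of all tested genes. MpPKS/CHS21 and MpPKS/CHS18, chalcone synthase-like genes, had wild-type log2 fold changes of 5.42 (SE 0.37) and 4.83 (SE 0.46).

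The oxidase families did not move in one direction. Of 36 polyphenol oxidase genes 12 rose and 4 fell in the wild type (median 0.10), and 11 rose and 2 fell in Mpglr-9 (median -0.01). The shares that rose, 33.3% and 30.6%, were near the 27.7% and 27.6% of all tested genes. MpPPO42 rose from 128 ± 48.0 to 3100 ± 437 CPM in the wild type (SD, n = 3). Of 102 class III peroxidase genes 9 rose and 41 fell in the wild type (40.2% fell, median -0.77), and 11 rose and 47 fell in Mpglr-9 (46.1% fell), against 27.8% and 27.2% of all tested genes. MpPOD161 and MpPOD167 were among those that rose, with wild-type log2 fold changes of 3.64 (SE 0.28) and 3.56 (SE 0.22).

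Among the dirigent genes of the 2 runs, those that stood high in intact library 3 differed between the genotypes, though MpDIR64 was high in both. Over all tested genes the 2 libraries deviated from their group means together (r = 0.68). In Mpglr-9, library 3 exceeded the mean of libraries 1 and 2 on the log2 scale by 2.21 for MpDIR35, 1.99 for MpDIR33, 3.23 for MpDIR32, 1.22 for MpDIR64 and 0.56 for MpDIR36. In the same library MpDIR34 differed by 0.25, MpDIR37 by 0.03 and MpDIR48 by -0.64. MpDIR34 lies between MpDIR35 and MpDIR33, so a member near its usual level stood between 2 high ones, and MpDIR33 and MpDIR32 next to each other were both high. In the wild type, library 3 exceeded the mean of libraries 1 and 2 by 2.96 for MpDIR64, with 2.54 for MpDIR45 and 2.21 for MpDIR44 beside it, and by 0.41 for MpDIR48 at the other end of that run. The 5 chromosome 5 members of the wild-type library ranged from -0.43 to 0.46. Of 17 tested genes without a dirigent symbol within 10 rows of the chromosome 3 run, 14 were less than 1 higher in the Mpglr-9 library. The others were Mp3g24040 (1.48), MpPPO31 (1.87, near the limit of detection) and MpPPO32 (1.21). In the wild-type library these stood at 1.96, 1.93 and 0.94.

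An excess of at least 1 on the log2 scale was seen in 1 of 7 members in the wild-type library and in 4 of 7 in the Mpglr-9 library, against 2.68% and 2.65% of all tested genes. Of the other 40 dirigent genes 7 and 2 showed it. Among genes called at least 2-fold higher in damaged lobes of the other genotype, 62 of 943 (6.57%) did so in the wild-type library and 87 of 986 (8.82%) in the Mpglr-9 library. What set these libraries apart was not tested.

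**Figure D4:**
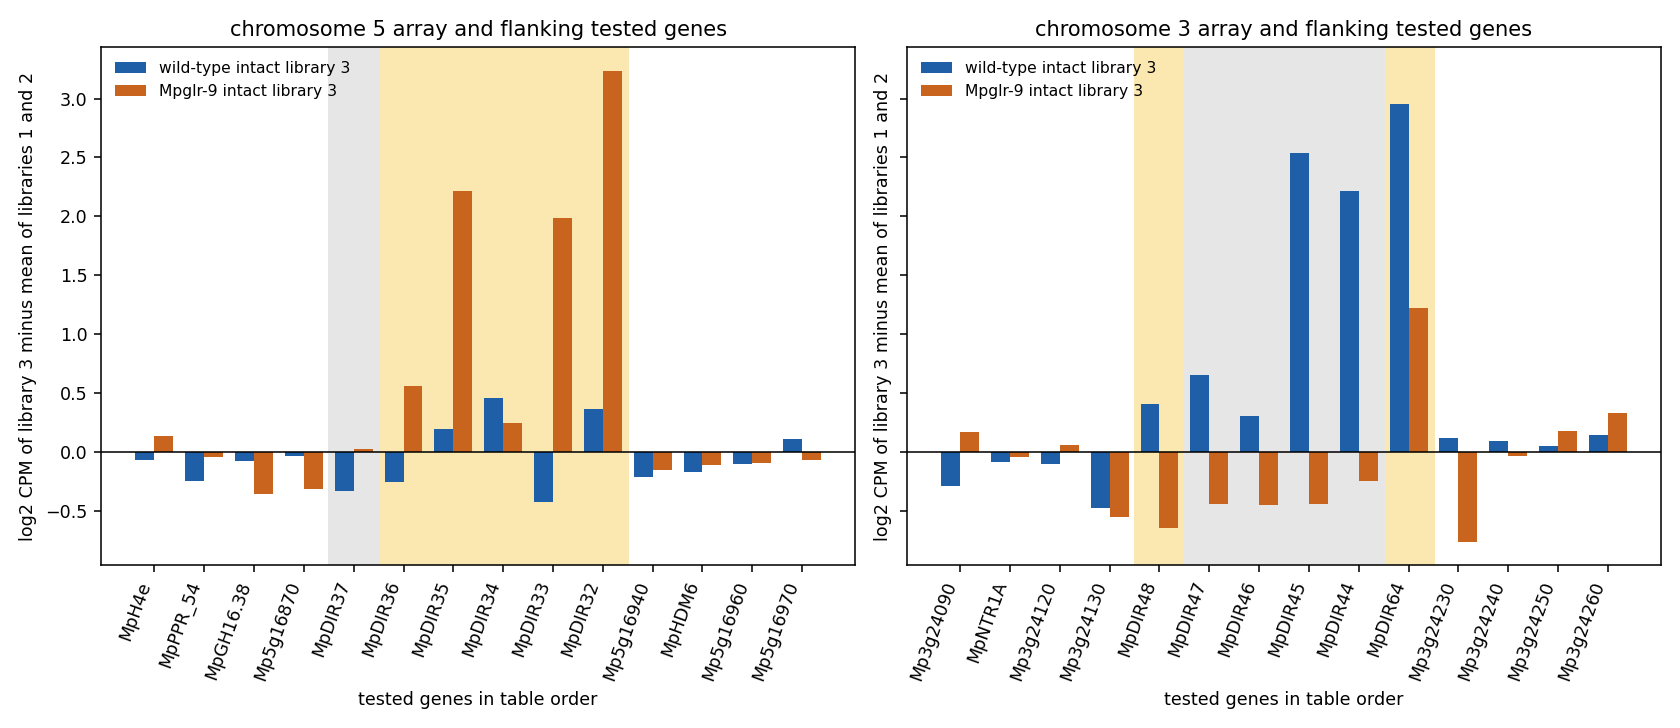
Log2 CPM of intact library 3 minus the mean of intact libraries 1 and 2, for tested genes in table order along both runs, with wild type in blue, Mpglr-9 in orange, the 7 described genes on yellow and other dirigent genes on grey. The tall orange bars stand at MpDIR35, MpDIR33 and MpDIR32 on chromosome 5, and the tall blue bars at MpDIR45, MpDIR44 and MpDIR64 on chromosome 3.

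After each group's mean was taken off, the median correlation was higher between members of one run than between those of different runs. This is a description over 18 libraries that share their groups. The median Pearson r was 0.625 over 11 pairs of the same run (0.0292 to 0.971) and 0.16 over 10 pairs of different runs (-0.243 to 0.544). The closest pair was MpDIR35 and MpDIR32 at 0.971. Not every member followed this order. The only pair of the chromosome 3 run, MpDIR48 and MpDIR64, stood at 0.268. MpDIR34 stood at 0.0292 to 0.402 with its own run and at 0.544 with MpDIR64. Over the 16 libraries without the intact libraries numbered 3 the medians were 0.47 and 0.352, a narrower distance, and MpDIR35 and MpDIR32 remained at 0.925.

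In systemic lobes no difference from intact plants was called for any of the 7 genes in the wild type, in Mpglr-9 or in the mean of both, and 0% of tested genes were called in each of the 3 comparisons (edgeR's quasi-likelihood test). At an unadjusted p under 0.05 there were 353, 810 and 773 genes of 13450, and DESeq2 called 8, 0 and 21 genes and limma-voom 0 in each. The intact libraries also served in the comparison that chose the members. For MpDIR36, MpDIR34 and MpDIR48 the 95% intervals of the log2 difference were narrow, from -0.34 to 0.32, -0.54 to 0.13 and -0.51 to 0.60 in the wild type and from -0.58 to 0.08, -0.06 to 0.63 and -0.65 to 0.51 in Mpglr-9. A change of 2-fold or more in systemic lobes lies outside these intervals.

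The other 4 genes had wider intervals in systemic lobes, and their values moved with the intact libraries numbered 3. For MpDIR32 in Mpglr-9 the systemic minus intact value was -1.73 (SE 0.78, edgeR adjusted p = 0.826), and it was 0.24 without Mpglr-9 intact library 3. For MpDIR64 in the wild type it was -0.22 (SE 0.69, adjusted p = 1), with an interval from -1.56 to 1.12. Without both intact libraries numbered 3 it was 1.54 (SE 0.41), or 2.91-fold, with an unadjusted p of 0.00247 and an adjusted p of 0.555 in edgeR. The 3 wild-type systemic libraries of MpDIR64 (4.39 to 7.91 CPM) all lay above intact libraries 1 and 2 (1.68 and 2.38 CPM) and below intact library 3 (16.1 CPM). The systemic interval of MpDIR35 ran from -1.03 to 1.04 in the wild type and from -1.80 to 0.20 in Mpglr-9, and that of MpDIR33 from -1.07 to 0.71 and from -1.44 to 0.32.

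No difference between Mpglr-9 and the wild type was called for any of the 7 genes, against 0.0223% of all tested genes in intact plants, 0.0297% in damaged lobes, 0.052% in systemic lobes and 0.312% in the mean of the 3 conditions. In damaged lobes the log2 differences ran from -0.45 to 0.13 and 6 of 7 were below 0, beside a median of 0.002 over all tested genes. The widest interval there was that of MpDIR64, from -1.55 to 0.80, and the narrowest that of MpDIR34, from -0.76 to -0.13. For MpDIR36 the damaged-lobe difference was -0.39 (SE 0.16, edgeR adjusted p = 0.828), from a mean of 23.2 ± 3.59 CPM in the wild type to 17.7 ± 2.22 CPM in Mpglr-9 (SD, n = 3).

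MpDIR34 came nearest to a difference between the genotypes. Its mean was 5.16 ± 1.01 CPM in the wild type and 3.57 ± 0.674 CPM in Mpglr-9 in intact plants, 17.2 ± 2.51 and 12.7 ± 0.79 CPM in damaged lobes, and 4.49 ± 0.381 and 4.36 ± 0.685 CPM in systemic lobes (SD, n = 3). The log2 differences were -0.53 (SE 0.17, edgeR adjusted p = 1), -0.45 (SE 0.16, adjusted p = 0.785) and -0.04 (SE 0.17, adjusted p = 1), and their mean was -0.34 (SE 0.10, adjusted p = 0.243). With the replicate number as a block within each condition the mean was -0.34 (SE 0.08) with an adjusted p of 0.0443, in a fit that called 259 genes in place of 42.

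In intact plants the largest genotype values rested on single libraries. MpDIR32 was 1.49 (SE 0.74, edgeR adjusted p = 1) higher in Mpglr-9, and -0.48 without Mpglr-9 intact library 3. MpDIR35 was 1.07 (SE 0.51) higher and -0.09 without that library, and MpDIR33 was 0.38 (SE 0.44) higher and -0.61 without it. MpDIR64 was at -1.19 (SE 0.72), and at 0.58 without wild-type intact library 3. In systemic lobes, where neither library enters, the values were 0.17 (SE 0.94) for MpDIR32, 0.26 (SE 0.53) for MpDIR35, below 0.01 in size for MpDIR33, -0.90 (SE 0.75) for MpDIR64 and -0.49 (SE 0.29) for MpDIR48.

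The interaction, the genotype difference in the change from intact to damaged tissue, was called for 0% of tested genes, the 7 included, and so was that for systemic tissue (edgeR). At an unadjusted p under 0.05 there were 335 and 356 genes, and DESeq2 and limma-voom called 0 in both. The damaged interaction was -0.62 (SE 0.23) for MpDIR36, -0.94 (SE 0.71) for MpDIR35, -0.56 (SE 0.61) for MpDIR33 and -1.77 (SE 0.94) for MpDIR32, all with an edgeR adjusted p of 1. It was 0.81 (SE 0.94) for MpDIR64. Without the intact libraries numbered 3 these were -0.33, 0.17, 0.58, 0.08 and -0.42. For MpDIR34 and MpDIR48 the intervals were -0.37 to 0.55 and -0.66 to 0.86, which leaves out a 2-fold difference between the genotypes in the response to crushing. For MpDIR32 the interval ran from -3.60 to 0.06, which holds both no difference and differences well over 2-fold.

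**Figure D5:**
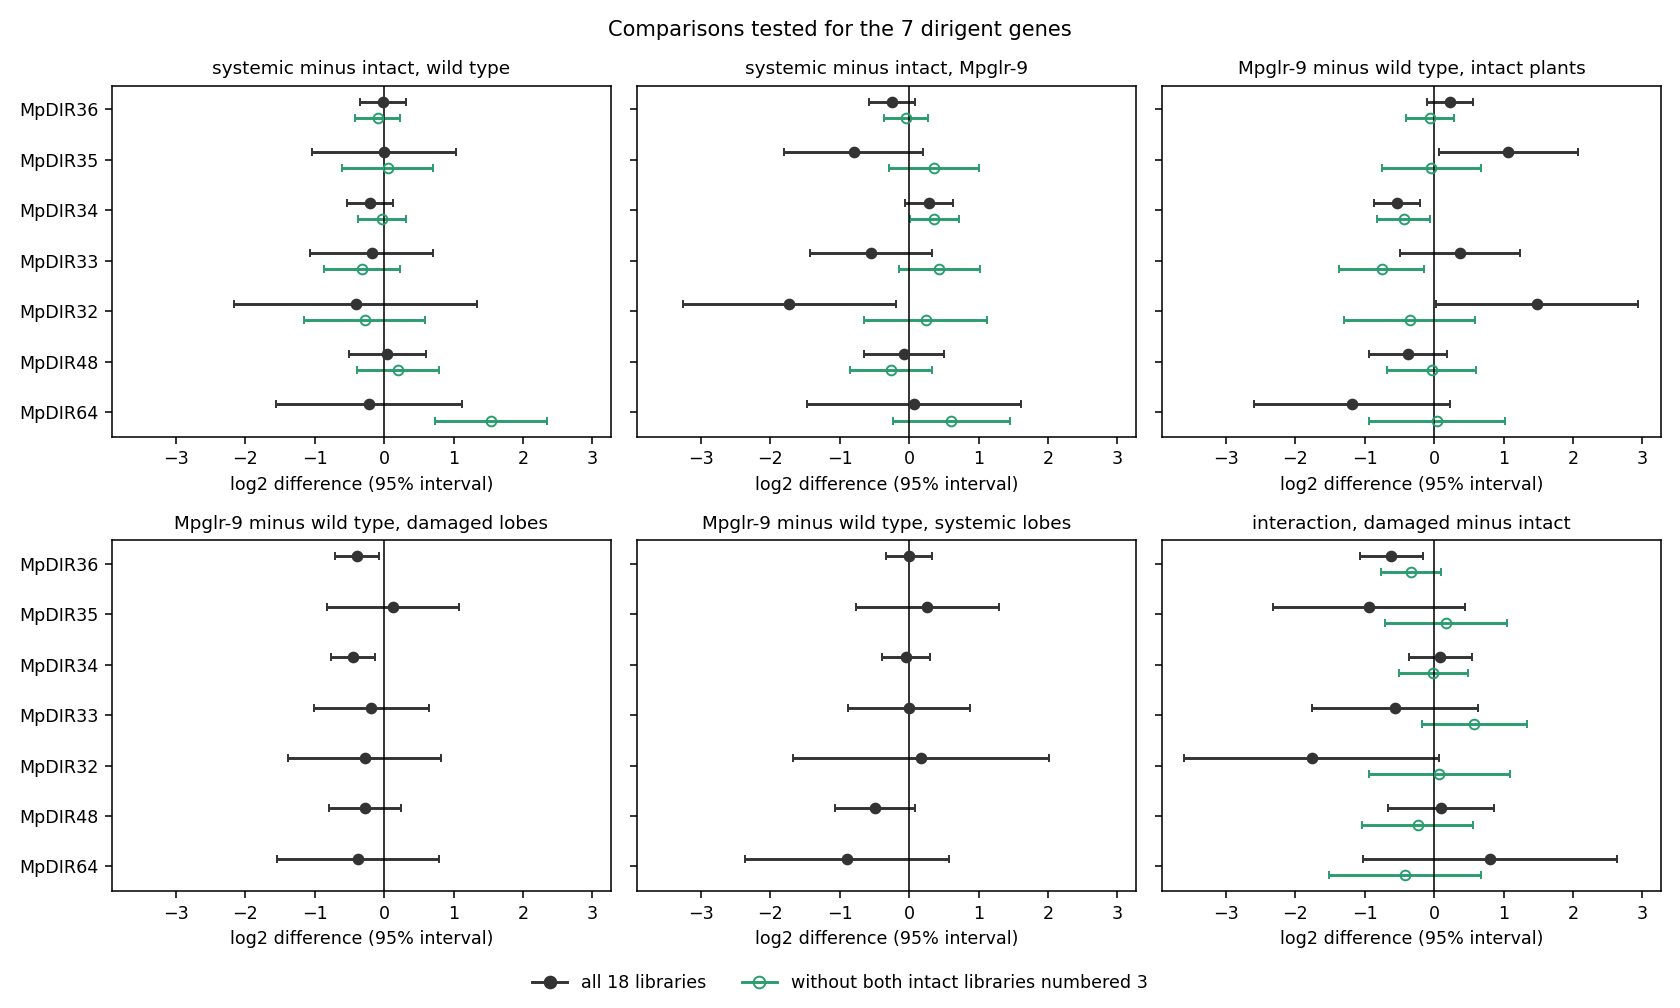
Log2 differences with 95% intervals for the 7 genes in 6 of the tested comparisons, with all 18 libraries (filled) and without both intact libraries numbered 3 (open), the latter only where intact libraries enter. The filled values of MpDIR35, MpDIR33, MpDIR32 and MpDIR64 that stand away from 0 move towards or across it in the genotype and interaction panels, whereas MpDIR64 in the wild-type systemic panel moves from -0.22 to 1.54.

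The genes most like the 7 over all 18 libraries, by Pearson r of log2 CPM with the mean of the members' standardised values, were Mp8g08990 (0.988), MpMAPKKK10 (0.985), MpPKS/CHS18 (0.985), Mp8g08950 (0.985) and Mp5g01880 (0.981). This measure follows the change that chose the members. Other genes raised by crushing score high on it, so the list is a description. MpMAPKKK10 encodes a kinase of the MAP kinase kinase kinase type. With the group means taken off, the closest were Mp8g08990 (0.929), Mp1g28940 (0.913), Mp8g08950 (0.906), Mp8g09000 (0.898) and Mp5g01880 (0.878), so 3 genes were on both lists. Mp8g08990 held 9.78 ± 1.77 CPM in intact and 163 ± 34.2 CPM in damaged wild-type libraries, and 14.4 ± 13.7 and 141 ± 30.8 CPM in Mpglr-9 (SD, n = 3), with a wide spread among the Mpglr-9 intact libraries.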

How the data were processed

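RNA of 18 thallus libraries was poly-A selected and read as pairs of 150 bases, per the labels' protocols. HISAT2 and HTSeq were used, per the submitters' processing notes. Neither their settings nor the build is given in the sources used here. As deposited by the authors, the values are unnormalised read counts, in a table from which 3 columns with no values were left out. Gene symbols came from the RefSeq gene table of assembly MpTak2_v7.1, in which 17384 of 19355 identifiers (89.8%) had a locus tag. No coordinates were used, and promoter and protein sequences were not used here.

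The counts were fitted with edgeR 4.0.16 in R 4.3.3 (filterByExpr by group, TMM, robust quasi-likelihood fit, 6 group means, all 18 libraries). P-values are two-sided and adjusted by Benjamini-Hochberg over 13450 genes, and a call is an adjusted p under 0.05. The SE is the log2 fold change divided by the square root of F, and intervals are nominally 95% (1.96 SE). The normal quantile makes them somewhat narrower than the test. For the genotypes in intact plants, that of MpDIR35 ran from 0.065 to 2.072 at an unadjusted edgeR p of 0.0557. The scripts were tested on simulated data. Alternatives were DESeq2 1.42.0, limma 3.58.1 (voom), other scalings, filters, replicate blocks and left-out libraries. Limits of 3 counts cover counting error only.

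The members and lists were chosen with earlier results of these data known. Named are all members, dirigent genes within 10 rows of one, the 2 dirigent genes at each extreme among those called, up to 2 called genes of each list with at least 5 CPM in a group, and the 5 most alike genes by each measure. Cell type markers are named beside their summed levels. MpPPO70, MpPPO30, MpPPO32, Mp3g24040, MpPR1o and the rows next to the runs (Mp5g16940, Mp3g24190 and Mp3g24200) fall outside this rule. They were named after their values were seen. No gene named laccase was found. Same-numbered libraries of the 2 genotypes deviated together in intact plants (r = 0.314, 0.487 and 0.68) and damaged lobes (0.254, 0.117 and 0.391), each over 0.1, but not in systemic lobes (0.0876, 0.037 and 0.388). No 2 replicates agreed within sampling noise (chi-square per gene 4.75 to 26.5).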

Additional observations from a re-analysis of the deposited data

How the results depend on the processing

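Of the 9 tested comparisons, the number of members called changed in 1, Mpglr-9 against the wild type in the mean of the 3 conditions, from 0 to 1 (MpDIR34) with a replicate block within condition. The replicate block changed no other member call, and neither did other scaling, filters, DESeq2, limma-voom or left-out libraries. The median change from intact to damaged over the 7 genes ranged from 1.77 to 1.99 in the wild type and from 1.68 to 2.06 in Mpglr-9 when 1 library at a time was left out, and from systemic to damaged from 1.91 to 2.04 and from 1.59 to 2.10. Of 1176 member values under alternatives 102 had another sign with no call, 93 of them in fits that left out a library. With an arm of 2 libraries the pooled spread is assumed to hold for it. The value without both intact libraries numbered 3 was chosen after the data were seen. The mean of the 3 conditions uses all 6 groups, so it was not fitted on fewer groups. With 3 libraries a group, the widest member interval reached 2.37 on either side, that of MpDIR32 in the systemic interaction. Its SE there was 1.21, and 0.64 without both intact libraries numbered 3.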

Other observations

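Mp8g08990, Mp8g08950 and Mp8g09000, 3 nearby loci on chromosome 8 without a symbol in the names used, were among the 5 genes most like the 7 dirigent genes with group means taken off, and Mp8g08990 and Mp8g08950 also without. Mp8g08950 held 13.0 ± 0.976 CPM in intact and 159 ± 43.4 CPM in damaged wild-type libraries, and 21.8 ± 21.5 and 148 ± 25.6 CPM in Mpglr-9 (SD, n = 3). Mp8g09000 held 1.63 ± 0.662 and 33.1 ± 9.81 CPM in the wild type and 5.26 ± 7.36 and 25.2 ± 7.02 CPM in Mpglr-9. Its change in Mpglr-9 was called (log2 2.26, SE 0.81, edgeR adjusted p = 0.0308), but not when the 2 groups were fitted alone (adjusted p = 0.135), nor without Mpglr-9 intact library 1 (0.0933) or 2 (0.0753) or damaged library 1 (0.0876) or 3 (0.0606). Beside the chromosome 5 run, MpPR1o, a pathogenesis-related protein gene, was 2.44 higher on the log2 scale in Mpglr-9 intact library 3 than in the mean of libraries 1 and 2, while the other 15 of the 16 tested genes without a dirigent symbol within 10 rows were less than 1 higher.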
